A study of Drosophila melanogaster with 12 samples.

Results

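The comparison described here is between salivary glands labelled as carrying mutations in 2 histone methyltransferase genes and salivary glands of the Oregon R wild-type stock of Drosophila melanogaster. Its members are 6 of the 12 libraries of the series, chosen by tissue and genotype from the labels, and the other 6 are wing imaginal discs with the same genotype labels. The 3 control libraries have the genotype OregonR. The 3 mutant libraries are labelled with the alleles egg_1473, at the gene for the methyltransferase SetDB1, and Su(var)3-9_06, and their titles call both genes knocked out. All larvae were at stage L3 and were kept at 25 °C, and each library pools the RNA of 25 glands. The sources used here do not give whether the larvae were homozygous, nor their sex. The labels speak of technical replicates, so the spread behind each p, that between 3 libraries of a group, may be technical only. Transcripts were polyadenylated RNA, enriched in 2 rounds on oligo-dT beads, and in whole organs fewer cells of a type and less RNA per cell cannot be told apart.

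Methylation of lysine 9 of histone H3 marks heterochromatin, the compact part of the genome around centromeres, at telomeres and over most of chromosome 4. Su(var)3-9 places much of this mark around the centromeres, SetDB1 on chromosome 4 and at dispersed sites, and the protein HP1a binds it. Heterochromatin holds most copies of the transposable elements and keeps them repressed, but it also holds many genes, some of which need this surrounding for normal expression. Larval salivary glands are secretory organs whose cells replicate their DNA many times without dividing, and at the end of the third larval stage they make glue proteins that fix the pupal case to a surface.

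Sequencing gave 17418224 to 57591665 gene counts per gland library, and 3 counts came to 0.0531 to 0.154 counts per 1000000 (CPM, scaled by TMM factors). The first principal component, with 59.1% of the variance, separated the groups, and the lowest correlation of a library with its own group (0.970) was above the highest with the other group (0.958). Between libraries of a group, the chi-square of the counts was 94.9 to 310.3 per gene, far above sampling noise. Of 9441 genes tested with edgeR's quasi-likelihood test, 13.2% were called at an adjusted p under 0.05, 685 higher (7.26%) and 558 lower (5.91%) in mutant-labelled glands. Leaving out 1 library changed the number called from 1243 to 710 (without control 1), 1512 (without control 2), 726 (without control 3), 798 (without mutant-labelled 1), 705 (without mutant-labelled 2) or 1021 (without mutant-labelled 3). The second component, with 22.8%, spread libraries within both groups, with control 2 at -30.2 and mutant-labelled 3 at 26.3. Single genes below are robust unless stated: they were called in each of these 6 fits, with groups that do not overlap and a change within 1.5-fold of the full one.

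The targeted genes were examined first. Su(var)3-9 itself (3R, 15259864 to 15263458, FBgn0263755) stood at 2.96, 2.36 and 2.12 CPM in control and 70.9, 60.6 and 112 CPM in mutant-labelled glands. The 3 libraries labelled as knocked out were thus the high ones, 32.7-fold above the controls (log2 5.04 ± 0.31, adjusted p = 8.73e-05), which goes against their label, and they are therefore called mutant-labelled throughout. Whether gland samples were exchanged was not tested. An exchange of both groups would turn every direction given for glands. egg (2R, 24775534 to 24779901, FBgn0086908) was at 4.99, 9.76 and 8.66 CPM in control and 7.82, 7.18 and 6.89 CPM in mutant-labelled glands. Its groups overlapped and it was not called (adjusted p = 0.851). Of the 5 tested genes on each side of Su(var)3-9, which include eIF2gamma, whose exons overlap it, only the zinc transporter gene Zip88E was called. Zip88E was at 623, 654 and 567 CPM in control and 335, 337 and 329 CPM in mutant-labelled glands (log2 -0.88 ± 0.17, adjusted p = 0.0117), a call that was lost with mutant-labelled 1 left out (adjusted p = 0.056). Within 1 Mb of Su(var)3-9, 11.7% of 188 genes tested were called, 5 higher and 17 lower, with a median log2 change of -0.10. Within 1 Mb of egg, 6.77% of 192 were called, 6 higher and 7 lower. Of all genes 13.2% were called, 7.26% higher and 5.91% lower.

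Transposable elements were mostly higher in mutant-labelled glands. Summed over 184 element consensus sequences, element reads came to 3763, 3154 and 3993 per 1000000 gene counts in control and 5740, 6945 and 7975 in mutant-labelled glands. All 3 mutant-labelled libraries were above all 3 controls, 1.89-fold on average. The difference of 0.92 in log2 had p = 0.1 by an exact two-sided permutation test, the smallest that 3 libraries against 3 allow, and it was 0.80 to 1.04 with 1 library left out. Of 161 elements with enough reads to test, 73.9% were called, 97 higher (60.2%) and 22 lower (13.7%), and their median change was 1.20 on the log2 scale, against -0.04 for all genes. Of these, 59 higher and 16 lower calls were robust. These changes are relative to gene reads: with the element totals as library sizes, 66 were called higher and 40 lower.

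The element classes are described apart. LTR retrotransposons, which are copied through RNA by a reverse transcriptase and end in long terminal repeats, summed to 2205, 2026 and 2229 reads per 1000000 in control and 3977, 4815 and 4962 in mutant-labelled glands, 2.13-fold higher. Of 106 LTR entries tested, 70 were called higher and 11 lower, with a median log2 change of 1.47. LINE-like retrotransposons, which have no such repeats, summed to 1377, 1002 and 1602 in control and 1597, 1928 and 2697 in mutant-labelled glands, where mutant-labelled 1 was below control 3. Of their 35 entries, 23 were called higher and 4 lower, with a median of 1.69. DNA transposons, which move without an RNA intermediate, had 4 of 20 entries called higher and 7 lower, with a median of -0.19. Their sums overlapped between the groups, at 181, 126 and 162 in control and 167, 202 and 316 in mutant-labelled glands.

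**Figure D1:**
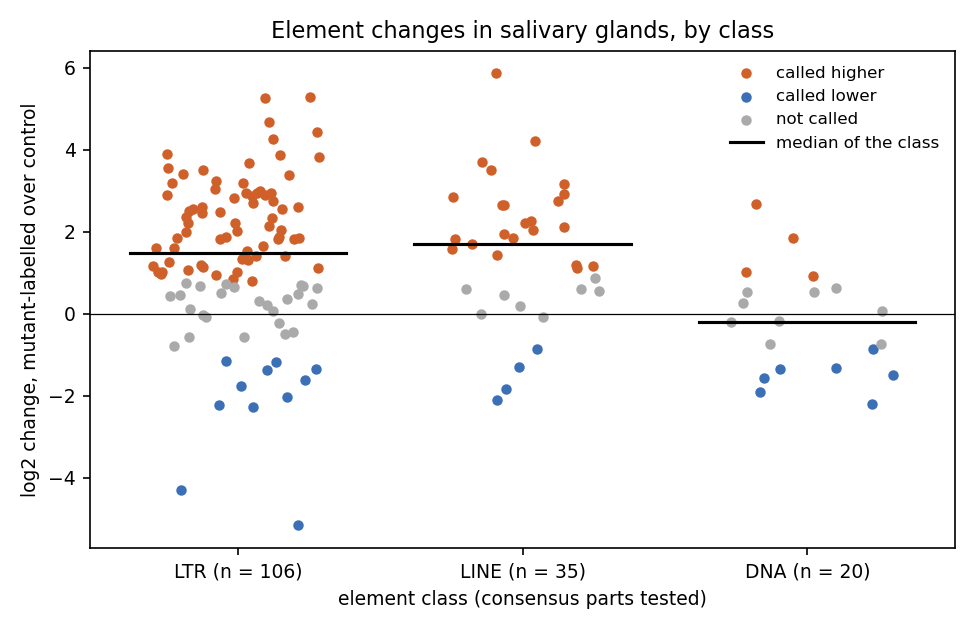
Log2 change of each tested element in mutant-labelled over control glands (vertical axis) by element class, with called elements coloured by direction and the class median as a line. Points are spread sideways for sight only. The medians lie at 1.47 for LTR, 1.69 for LINE and -0.19 for DNA elements, and the strongest fall belongs to the LTR element IDEFIX.

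The 6 entries that added most to the net rise in element reads are copia, 1731, MAX, DOC6, G6 and FW. The internal part of copia, an LTR retrotransposon, added 21.7% of it, at 920.4, 1055 and 935 in control and 1503, 1839.7 and 1685 in mutant-labelled glands per 1000000. Its groups did not overlap, but its change was small (log2 0.79 ± 0.31, adjusted p = 0.0153) and its call was lost with control 1 or 3 or mutant-labelled 2 left out (adjusted p = 0.0615 to 0.0803). With element totals as library sizes its log2 change was -0.14. The related element 1731 added 16.9% and stood at 39.9, 79.4 and 33.4 in control and 533, 666 and 606 in mutant-labelled glands (log2 3.56 ± 0.37, adjusted p = 5.18e-19). MAX added 10.3%, at 76.7, 57.5 and 83.4 in control and 299, 414 and 514 in mutant-labelled glands (log2 2.49 ± 0.36, adjusted p = 9.13e-11). The LINE-like elements DOC6 and G6 added 9.44% and 9.28%, from means of 46.4 and 5.32 to 353 and 307 reads per 1000000. The F element, entered as FW, added 8.34% but was not called, at 637, 318 and 770.2 in control and 552, 696 and 1289.9 in mutant-labelled glands (adjusted p = 0.103), where the groups overlap.

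G6 had the steepest rise of all elements, at 3.67, 9.04 and 3.25 in control and 279, 220.1 and 421 in mutant-labelled glands per 1000000, 57.7-fold (log2 5.86 ± 0.44, adjusted p = 5.04e-34, log2 6.47 without control 2). Next came elements of the gypsy group of LTR retrotransposons, some of which carry an envelope gene as retroviruses do. The long terminal repeat (LTR) of gypsy was at 0.0510, 0.514 and 0.170 in control and 7.47, 8.03 and 11.4 in mutant-labelled glands (log2 5.27 ± 0.51, adjusted p = 1.31e-21, log2 6.06 without control 2), and its internal part at 6.63, 10.3 and 5.26 in control and 70.8, 77.8 and 133 in mutant-labelled glands (log2 3.67 ± 0.42, adjusted p = 1.56e-16). The internal part of gtwin stood at 0.306, 0.565 and 0.246 in control and 19.7, 5.85 and 14.9 in mutant-labelled glands (log2 5.25 ± 0.50, adjusted p = 1.32e-22), with no mutant-labelled library near a control. ZAM, of the same group, was at 0.815, 0.924 and 0.643 in control and 3.68, 8.59 and 9.09 in mutant-labelled glands (log2 3.19 ± 0.44, adjusted p = 9.91e-12). DIVER rose as well, from 3.52, 2.31 and 6.45 to 55.9, 72.1 and 109.7 (log2 4.25 ± 0.43, adjusted p = 5.78e-20). The LTR of MICROPIA had reads in 1 control library only, at 0, 0 and 0.132 in control and 1.13, 1.57 and 2.04 in mutant-labelled glands (log2 4.43 ± 0.62, adjusted p = 1.33e-11). Without control 3 no control read remains, and the fitted log2 change of 8.91 is then no measure of size. The adjusted p-values of elements are small because the fit gave all elements 1 shared spread (a coefficient of variation of 0.311), so the order of their p-values says little about single elements.

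The internal part and the LTR of an element are separate entries, which mostly moved alike. Of 43 such pairs with both entries tested, 26 were both called higher, 3 both lower and 0 in opposite directions. In 10 pairs 1 entry was called, and in 4 neither. DM297 is a pair in which both rose, the internal part at 10.8, 6.98 and 11.6 in control and 43.0, 41.9 and 52.6 in mutant-labelled glands (log2 2.22 ± 0.40, adjusted p = 1.16e-07) and the LTR at 2.34, 1.59 and 3.33 in control and 19.2, 16.6 and 22.6 in mutant-labelled glands (log2 2.98 ± 0.42, adjusted p = 2.09e-11). Of DM412, the LTR was called (log2 1.88 ± 0.47, adjusted p = 0.000133) and the internal part was not (log2 -0.02 ± 0.40, adjusted p = 0.957), and neither had more than 3.29 reads per 1000000 in any library. Of roo, the LTR fell, at 92.4, 51.0 and 86.5 in control and 22.8, 30.04 and 35.7 in mutant-labelled glands (log2 -1.38 ± 0.38, adjusted p = 0.00059), while the internal part overlapped between the groups at 343, 148 and 323 in control and 270.1, 284 and 386 in mutant-labelled glands (adjusted p = 0.584).

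**Figure D2:**
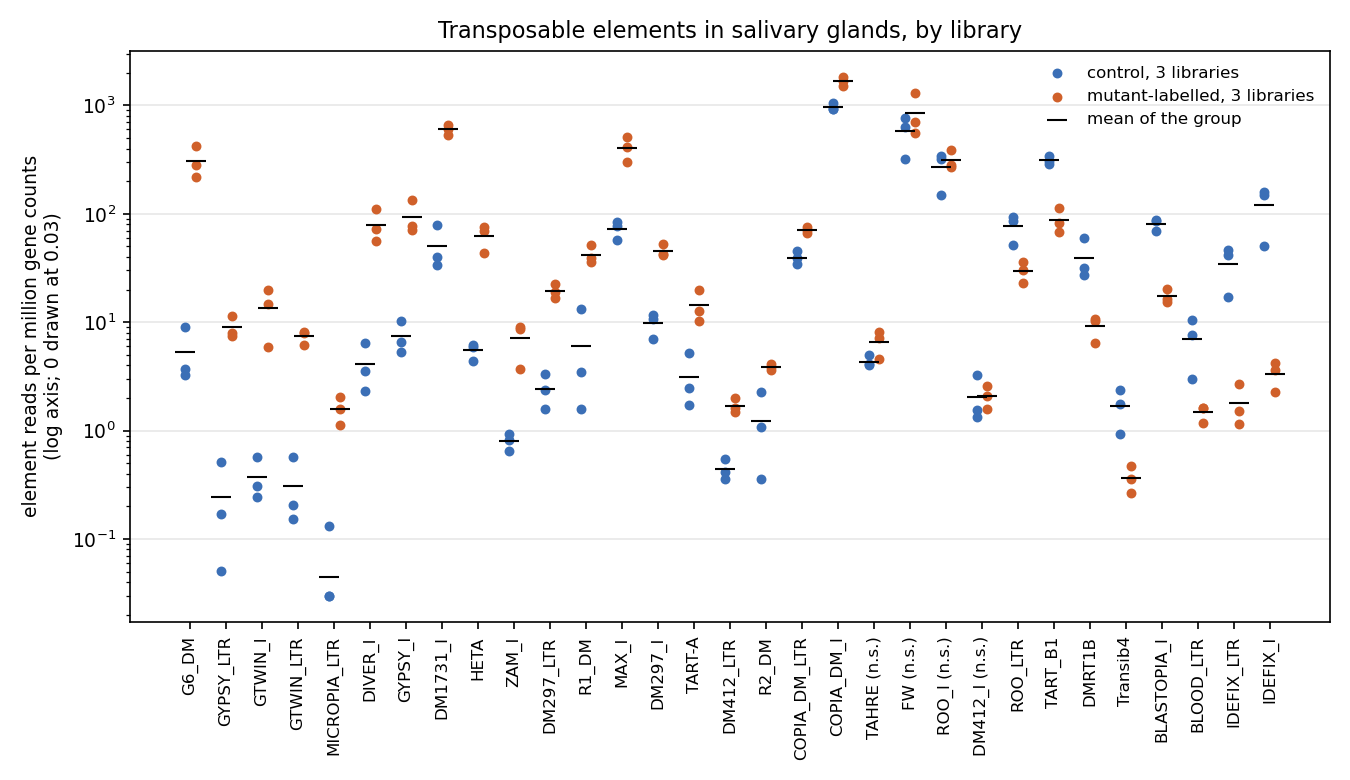
Reads per 1000000 gene counts (log axis) of named elements in each of the 3 control and 3 mutant-labelled gland libraries, drawn as points, with group means as bars and elements that were not called marked n.s. For G6, gypsy, 1731 and HeT-A all mutant-labelled points lie above all controls, for IDEFIX and TART_B1 all lie below, and for FW and the internal part of roo the groups overlap.

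The retrotransposons of telomeres did not move as a group. HeT-A, TART and TAHRE lengthen fly chromosome ends in place of telomerase. HeT-A rose 11.3-fold, at 5.96, 6.21 and 4.42 in control and 43.5, 69.0 and 74.9 in mutant-labelled glands per 1000000 (log2 3.50 ± 0.42, adjusted p = 4.93e-15), and all 3 mutant-labelled libraries were far above the controls. Of TART, the entry TART-A rose, at 5.15, 2.46 and 1.72 in control and 12.7, 19.9 and 10.3 in mutant-labelled glands (log2 2.22 ± 0.41, adjusted p = 2.26e-07), but the more abundant entry TART_B1 fell, at 288, 342 and 308 in control and 81.7, 68.5 and 113 in mutant-labelled glands (log2 -1.83 ± 0.36, adjusted p = 1.24e-06). TAHRE was not called, at 4.08, 4.93 and 3.99 in control and 4.55, 8.08 and 7.20 in mutant-labelled glands (adjusted p = 0.144), with groups that overlap. R1 and R2, which insert into ribosomal RNA genes, both rose, but with element totals as library sizes R2 was not called (log2 0.68, adjusted p = 0.166). R1 was at 1.58, 3.44 and 13.2 in control and 36.0, 38.7 and 51.2 in mutant-labelled glands (log2 2.76 ± 0.41, adjusted p = 1.47e-10, log2 4.06 without control 3) and R2 at 0.357, 1.08 and 2.25 in control and 3.89, 3.64 and 4.11 in mutant-labelled glands (log2 1.57 ± 0.41, adjusted p = 0.000252, log2 2.43 without control 3), and in both cases control 3 was the highest of the controls. Control 3 was also far above the other controls in the ribosomal RNA pseudogene 28SrRNA-Psi:CR45860, at 0.612, 0.668 and 1196 CPM in control and 0.850, 0.378 and 132 CPM in mutant-labelled glands. A link to R1 and R2 was not tested.

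Some elements fell. IDEFIX, of the gypsy group like gtwin and ZAM, had the steepest fall, with its internal part at 158, 50.1 and 150.004 in control and 2.25, 3.62 and 4.21 in mutant-labelled glands and its LTR at 46.0, 16.9 and 41.3 in control and 1.15, 1.51 and 2.68 in mutant-labelled glands (log2 -5.15 ± 0.44 and -4.29 ± 0.44, adjusted p = 1.19e-26 and 1.43e-19). Control 2 was the lowest control in both but lay above every mutant-labelled library. BLASTOPIA was at 86.7, 69.2 and 87.6 in control and 15.3, 16.2 and 20.3 in mutant-labelled glands (log2 -2.23 ± 0.39, adjusted p = 6.35e-08), and the LTR of BLOOD at 7.54, 2.98 and 10.6 in control and 1.19, 1.62 and 1.61 in mutant-labelled glands (log2 -2.27 ± 0.41, adjusted p = 1.16e-07). The LINE-like DMRT1B stood at 31.8, 27.3 and 59.2 in control and 6.495, 10.2 and 10.7 in mutant-labelled glands (log2 -2.11 ± 0.40, adjusted p = 4.45e-07), and the DNA transposon Transib4 at 2.34, 0.924 and 1.76 in control and 0.265, 0.468 and 0.357 in mutant-labelled glands (log2 -2.20 ± 0.47, adjusted p = 7.42e-06). The groups of none of these overlapped. Oregon R and the mutant stock are separate strains, and laboratory strains differ in which element copies they carry, so copy number and transcription per copy cannot be told apart here.

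Genes inside pericentromeric heterochromatin were called more than 3 times as often as genes elsewhere, and more of them fell than rose. For this count the regions were bounded at 22 Mb on 2L, 5 Mb on 2R, 23 Mb on 3L, 4 Mb on 3R and 22 Mb on X (build BDGP6). Of 258 genes there in the tables, 152 could be tested, 24 were higher (15.8%) and 42 lower (27.6%), with a median log2 change of -0.34. Of 9203 tested genes outside these regions and outside chromosome 4, 7.06% were higher and 5.48% lower, with a median of -0.03. With 1 library left out, 16 to 24 pericentromeric genes were higher and 28 to 42 lower, and 8 rises and 28 falls were robust. By arm, 10 of 40 genes on 2R rose and 15 fell, on 3L 6 of 37 and 13, on 2L 4 of 31 and 6, on 3R 2 of 7 and 4, and on X 2 of 37 and 4. Single libraries moved some of these: without control 3, 6 rose on 2R, without control 1 or mutant-labelled 2, 8 fell on 3L, and without mutant-labelled 1 or mutant-labelled 2, 3 fell on 2L. On X, 4 rose without control 2 and 1 without any other library.

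The genes that fell and those that rose differed in level and in the share that codes for proteins. Those that fell had a median level of 32.3 CPM in control glands and 7.31 CPM in mutant-labelled ones, and 38 of the 42 code for proteins. Those that rose went from a median of 0.198 to 3.98 CPM, and 15 of the 24 do not code for proteins. A gene near 0 in controls can hardly be called lower, so the control level is tied in part to the direction of a call. Among called genes outside these regions and chromosome 4, the median control level was 4.03 CPM for rises and 6.78 CPM for falls. The groups did not overlap in the 66 called pericentromeric genes, as in all but 3 of the other called genes outside chromosome 4. The shares differed across the boundary: in the first 1 Mb inside it, 14.3% of 84 genes were higher and 31.0% lower, whereas in the first 1 Mb outside it 10.2% of 264 were higher and 6.82% lower. Further along the arms, each bin had 4.91% to 9.64% higher and 3.72% to 6.25% lower. Within the regions, 10 of the 38 genes deeper than 2 Mb were higher and 12 lower, but in the 30 genes at 1 to 2 Mb only 2 and 4. 

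**Figure D3:**
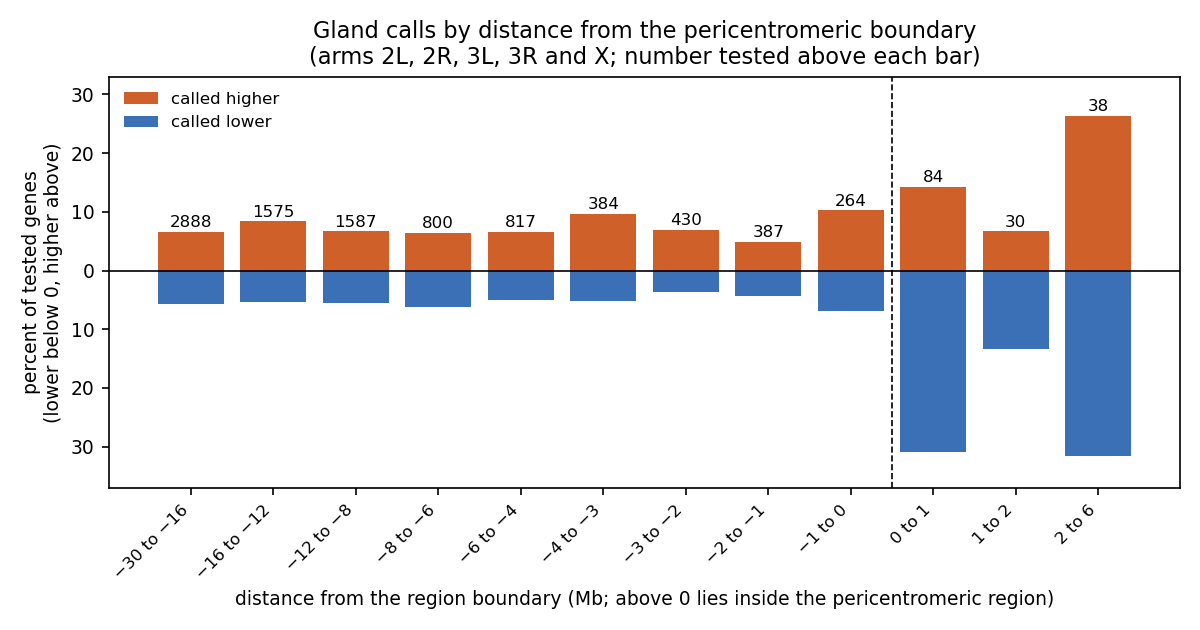
Percentage of tested genes called higher or lower in mutant-labelled glands (vertical axis) by distance in Mb from the pericentromeric boundary, inside to one side and outside along the arms to the other. Lower calls take 31.0% of genes in the first 1 Mb inside the boundary and 6.82% in the first 1 Mb outside.

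The pericentromeric genes that fell include some with known roles in every cell. Maf1 (2R, 1512810 to 1527095), a repressor of RNA polymerase III, was at 87.8, 46.9 and 52.1 CPM in control and 1.65, 2.68 and 2.30 CPM in mutant-labelled glands, 28.2-fold lower (log2 -4.82 ± 0.34, adjusted p = 0.00015). Parp1 (3R, 3461351 to 3587054), the poly(ADP-ribose) polymerase that loosens chromatin and serves DNA repair, was at 19.1, 14.1 and 13.2 CPM in control and 1.36, 2.16 and 1.33 CPM in mutant-labelled glands (log2 -3.25 ± 0.27, adjusted p = 0.000364). The groups were far apart for both genes, with no mutant-labelled library near a control. BckdhB (2R, 1590484 to 1596457), a subunit of the enzyme that breaks down branched-chain amino acids, was at 48.1, 37.9 and 36.8 CPM in control and 8.23, 7.52 and 5.26 CPM in mutant-labelled glands (log2 -2.54 ± 0.23, adjusted p = 0.000489). UQCR-11 (3L, 25120709 to 25126171), a subunit of respiratory complex III, was at 47.8, 40.3 and 35.2 CPM in control and 10.8, 10.3 and 7.94 CPM in mutant-labelled glands (log2 -2.08 ± 0.20, adjusted p = 0.000704). In UQCR-11, as in BckdhB, all mutant-labelled libraries were low. Of 67 oxidative-phosphorylation genes tested, 0 rose and 3 fell, and the others were ATPsynbetaL, which had at most 1.02 CPM, and ND-MLRQ (log2 -0.74 ± 0.17, lost with control 1 or 2 or mutant-labelled 1, 2 or 3 left out (adjusted p = 0.0514 to 0.102)). The 3 falls are 4.48% of that list, against 5.91% of all genes, and its median was 0.07, against -0.04 for all genes.

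Other pericentromeric genes were nearly silent in mutant-labelled glands. CG17698 (3L, 23737960 to 23749058) went from 48.9, 24.4 and 30.2 to 0.814, 0.648 and 0.715 CPM (log2 -5.56 ± 0.33, adjusted p = 7.99e-05), and CG40160 (3L, 26215815 to 26229433) from 87.6, 58.2 and 80.1 to 1.86, 0.918 and 2.20 CPM (log2 -5.51 ± 0.37, adjusted p = 0.000139). CG17684 (2R, 1866080 to 2262115) went from 20.5, 15.3 and 24.4 to 0.442, 0.540 and 0.944 CPM (log2 -4.99 ± 0.34, adjusted p = 0.00014). nAChRalpha4 (3L, 23206669 to 23287448), a subunit of nicotinic acetylcholine receptors, was low in both groups, at 6.37, 3.08 and 6.41 CPM in control and 0.0531, 0.252 and 0.332 CPM in mutant-labelled glands (log2 -4.67 ± 0.59, adjusted p = 0.0022). CG40045 (3L, 24028515 to 24035859) kept more of its transcript, at 101, 57.3 and 64.8 CPM in control and 7.75, 6.79 and 8.32 CPM in mutant-labelled glands (log2 -3.29 ± 0.26, adjusted p = 0.000285). In all 5 the highest mutant-labelled library was well below the lowest control.

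Most pericentromeric genes that rose started close to 0. CG3635 (2L, 22175415 to 22183991), listed with the lipid metabolism genes, had the largest rise in log2 of the robust genes that reached a mean of 10 CPM, at 0.0510, 0.205 and 0.170 CPM in control and 11.7, 16.5 and 16.1 CPM in mutant-labelled glands, 104-fold (log2 6.59 ± 0.36, adjusted p = 7.99e-05). The non-coding CR40354 (3L, 25201942 to 25203341) was at 1.38, 2.88 and 1.46 CPM in control and 34.3, 74.5 and 92.2 CPM in mutant-labelled glands (log2 5.16 ± 0.48, adjusted p = 0.000536), with mutant-labelled 1 the lowest of its group. lncRNA:CR46253 (2L, 23239253 to 23240411) was at 0.204, 0 and 0.227 CPM in control and 9.84, 9.14 and 7.86 CPM in mutant-labelled glands (log2 5.74 ± 0.52, adjusted p = 0.000489, log2 6.40 without control 3). The pseudogene CR41379 (2R, 1806864 to 1807342) had no count in any control library and 0.938, 1.12 and 0.944 CPM in mutant-labelled glands, at least 30.6-fold higher against a floor of 3 counts over the control group. AGO3 (3L, 23554593 to 23689640), which encodes an Argonaute protein that binds piRNAs in the germline, was at 0.917, 0.668 and 0.908 CPM in control and 2.65, 3.26 and 4.03 CPM in mutant-labelled glands (log2 1.98 ± 0.29, adjusted p = 0.0043). Nipped-B (2R, 4691672 to 4729017), which loads cohesin onto chromosomes, was at 70.1, 52.0 and 52.2 CPM in control and 101, 161 and 107 CPM in mutant-labelled glands (log2 1.08 ± 0.24, adjusted p = 0.0238), but its call was lost with control 2 or 3 or mutant-labelled 2 left out (adjusted p = 0.0516 to 0.0923). Maf1, BckdhB, CG17684, CG40045, lncRNA:CR46253, CR41379 and Nipped-B were chosen after their values were seen.

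Chromosome 4, which is largely heterochromatic and bound by the protein POF, had a higher share of calls than the whole genome. Of 86 genes tested there, 11 were higher (12.8%, against 7.26% of all genes) and 12 lower (13.95%, against 5.91%). The median log2 change was -0.26, against -0.04 for all genes. Control 1, control 3 and mutant-labelled 2 each mattered to these counts: without them the calls were 6 higher and 5 lower, 7 and 7, and 6 and 4, and without mutant-labelled 1 the lower calls were 6. Without control 2 the calls were 10 higher and 17 lower, and without mutant-labelled 3, 8 and 11. Robust were 5 rises and 4 falls. The 4 robust falls lie side by side. CG31998, Crk, CG31999, yellow-h, asRNA:CR46065 and CG1674, between 196675 and 245903, were all called lower. The calls of asRNA:CR46065 and CG1674 were lost on leaving out control 1 or mutant-labelled 2, and the former also on leaving out mutant-labelled 1. Crk, an adaptor protein of receptor signalling, was at 69.7, 40.98 and 46.3 CPM in control and 12.4, 12.4 and 13.6 CPM in mutant-labelled glands (log2 -2.03 ± 0.23, adjusted p = 0.00133), and CG31998 at 98.9, 61.8 and 91.6 CPM in control and 9.15, 11.4 and 12.99 CPM in mutant-labelled glands (log2 -2.91 ± 0.25, adjusted p = 0.000365). yellow-h was low, at 1.12, 0.924 and 1.82 CPM in control and 0.106, 0.108 and 0.204 CPM in mutant-labelled glands (log2 -3.25 ± 0.48, adjusted p = 0.00412).

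Among chromosome 4 genes that rose, CG11155 was at 5.66, 6.68 and 3.88 CPM in control and 138, 187 and 181 CPM in mutant-labelled glands, 31.2-fold (log2 4.97 ± 0.29, adjusted p = 7.99e-05). CG33521 was at 17.5, 11.96 and 9.49 CPM in control and 44.9, 46.7 and 36.6 CPM in mutant-labelled glands (log2 1.72 ± 0.25, adjusted p = 0.00404). In both, the groups were clearly apart. The metabotropic glutamate receptor gene mGluR rose from 0.459, 0.668 and 0.435 to 1.35, 2.16 and 1.68 CPM (log2 1.75 ± 0.35, adjusted p = 0.0151), a call lost with control 1 or 3 or mutant-labelled 2 left out (adjusted p = 0.0638 to 0.0726). None of the 113 genes of the Y chromosome had enough counts to test. Crk, CG31998, yellow-h and CG33521 were chosen after their values were seen.

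Some called genes lie side by side. Among tested genes in chromosome order, 23 runs of at least 3 neighbours were called higher (93 genes, 13.6% of the higher calls) and 23 runs were called lower (82 genes, 14.7% of the lower calls). The longest run of rises is the Bomanin cluster on 2R described below, with 10 genes. The next is on 3R between 7533496 and 7750079, where 9 neighbours from alpha-Est5 to pyd3 were called, among them 5 alpha-esterase genes, and 4 of the 9 were robust. A run of 6 on 3R between 24509228 and 24527533 holds 4 robust genes, Pp1alpha-96A, asRNA:CR44021, CG13622 and Jhbp12. Pp1alpha-96A, a catalytic subunit of protein phosphatase 1, was at 125, 104 and 107 CPM in control and 342, 289.9 and 402 CPM in mutant-labelled glands (log2 1.62 ± 0.21, adjusted p = 0.00232). Its neighbour Jhbp12 was nearly absent from controls, at 0.917, 0.616 and 0.624 CPM in control and 14.5, 12.7 and 22.8 CPM in mutant-labelled glands (log2 4.56 ± 0.32, adjusted p = 0.000151). The sources used here do not state whether strand was kept or how reads in overlapping genes were counted, so reads of a gene and of its overlapping or antisense partner may not be told apart.

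The longest run of falls, 8 genes on 2L between 8852009 and 8868747 of which 3 were robust, includes CG32983, at 6.68, 2.93 and 5.98 CPM in control and 0.248, 0.0180 and 0.306 CPM in mutant-labelled glands (log2 -4.80 ± 0.70, adjusted p = 0.004). On 3R between 14513901 and 14561521, 4 neighbours fell: Pde6, Cyp313a1, lncRNA:CR46021 and Jig. Of these, Cyp313a1 was not robust, since its log2 change of -8.53 was -7.57 without control 1. Jig was among the abundant genes of control glands, at 328, 277 and 634 CPM in control and 2.92, 2.05 and 2.30 CPM in mutant-labelled glands (log2 -7.41 ± 0.44, adjusted p = 7.99e-05), and lncRNA:CR46021 beside it was at 13.6, 2.52 and 8.36 CPM in control and 0.0531, 0.090005 and 0.102 CPM in mutant-labelled glands (log2 -6.62 ± 0.73, adjusted p = 0.00107). All 3 mutant-labelled libraries were low in both. Just outside the pericentromeric boundary of 2R, between 5144733 and 5295965, a run of 3 called genes includes the robust Atf6 and Nipped-A. Atf6, a transcription factor of the endoplasmic reticulum stress response, was at 56.1, 24.8 and 38.7 CPM in control and 6.30, 8.28 and 5.23 CPM in mutant-labelled glands (log2 -2.59 ± 0.33, adjusted p = 0.00231), and 30.7% of its exon length is overlapped by another gene. On X between 22515197 and 22542024, inside the boundary, CG17600, the ribosomal S6 kinase gene S6kII and CG17598 fell by 1.05 to 1.64 in log2. The call of S6kII was lost on leaving out control 1 or 3 or mutant-labelled 1 or 2 (adjusted p up to 0.116). Pp1alpha-96A, Jhbp12, CG32983 and lncRNA:CR46021 were chosen with their values known.

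The Bomanin genes, induced by the Toll pathway, rose, as did 5 of 10 other Toll-induced peptide genes. Of 19 Imd effector genes, 9 fell. The Toll pathway answers fungi and Gram-positive bacteria, and the Imd pathway answers Gram-negative bacteria. Each induces its own set of secreted peptides, mainly in the fat body. All 10 Bomanin genes tested, of 12 in the tables, were called higher, with a median log2 change of 5.35. BomS2 was at 0.408, 1.59 and 1.08 CPM in control and 54.7, 47.6 and 67.9 CPM in mutant-labelled glands (log2 5.78 ± 0.42, adjusted p = 0.000176) and BomS3 at 3.77, 4.36 and 3.18 CPM in control and 164, 113 and 163 CPM in mutant-labelled glands (log2 5.29 ± 0.26, adjusted p = 7.99e-05). Every mutant-labelled library was above every control for all 10, as for 17.0% of all genes tested. The smallest change was that of BomT2, at 2.65, 0.719 and 3.33 CPM in control and 16.8, 12.2 and 19.8 CPM in mutant-labelled glands (log2 2.82 ± 0.47, adjusted p = 0.00707). The log2 change shifted for BomS1 (6.51 without control 2), BomBc2 (5.98 without control 2), BomS4 (7.46 without control 3, when no control count remains) and BomT1 (5.90 without control 3) by over 1.5 times, without loss of a call.

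Of 10 other Toll-induced peptide genes tested, 5 rose (50%, against 7.26% of all genes) and 1 fell (10%, against 5.91%). The antifungal peptide gene Drs was at 4.23, 6.06 and 12.95 CPM in control and 239, 153 and 246 CPM in mutant-labelled glands (log2 4.77 ± 0.47, adjusted p = 0.000724, log2 5.36 without control 3). BaraA1, a Baramicin gene of whose exon length 23.5% overlaps another gene, was at 1.12, 0.976 and 1.32 CPM in control and 23.999, 17.9 and 26.6 CPM in mutant-labelled glands (log2 4.30 ± 0.24, adjusted p = 7.99e-05). The mutant-labelled libraries were high in both. The Daisho genes Dso1 and Dso2 rose from 0.306, 0.103 and 0.0756 to 4.28, 5.54 and 6.48 CPM (log2 5.24 ± 0.49, log2 5.97 without control 1) and from 0.306, 0.205 and 0.227 to 2.69, 3.29 and 1.68 CPM (log2 3.38 ± 0.40), with adjusted p = 0.000536 and 0.00157. Drsl6 had no count in controls and at most 0.638 CPM in mutant-labelled glands, and was not tested without mutant-labelled 1 and lost with control 1 or 3 or mutant-labelled 2 left out (adjusted p = 0.053 to 0.0783). Drsl5, a relative of Drs, went the other way, at 25.7, 6.37 and 38.1 CPM in control and 0.212, 0.0720 and 0.306 CPM in mutant-labelled glands (log2 -6.94 ± 0.80, adjusted p = 0.00137). Metchnikowin (Mtk, adjusted p above the threshold) stood at 5.50, 2.67 and 1.99 CPM in control and 1.96, 1.30 and 11.4 CPM in mutant-labelled glands, where mutant-labelled 3 alone is above the controls.

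Upstream of these peptides, 5 of 25 Toll signalling and recognition genes rose (20%, against 7.26% of all genes). Of these 25, 1 fell (4%, against 5.91%), and the median was 0.28. GNBP3, which recognises fungal glucans, was at 26.2, 21.2 and 32.9 CPM in control and 88.1, 80.2 and 129 CPM in mutant-labelled glands (log2 1.89 ± 0.26, adjusted p = 0.00309). SPE, the protease that activates the ligand Spätzle, was at 1.22, 0.873 and 1.34 CPM in control and 3.61, 3.10 and 2.99 CPM in mutant-labelled glands (log2 1.48 ± 0.27, adjusted p = 0.0105). The serpin gene nec, a negative regulator of the pathway, rose too, at 10.1, 5.75 and 12.1 CPM in control and 26.9, 24.8 and 38.7 CPM in mutant-labelled glands (log2 1.68 ± 0.30, adjusted p = 0.0103). Hayan, a protease of the cascade with 36.2% of its exon length overlapped, rose by 1.25 ± 0.32 in log2, a call lost with control 1 or 2 or mutant-labelled 1 or 3 left out (adjusted p = 0.0558 to 0.122), and the recognition gene PGRP-SD fell by 1.61 in log2, a call lost with mutant-labelled 2 left out (adjusted p = 0.053). The number higher was 3 without control 1, mutant-labelled 1 or mutant-labelled 3, and the number lower was 3 without control 2 and 0 without mutant-labelled 2.

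Of 19 Imd effector genes tested, 0 rose and 9 fell (47.4%, against 5.91% of all genes), with a median log2 change of -1.53. Without mutant-labelled 2, 5 fell. The Diptericin gene DptB was at 46.3, 30.7 and 94.3 CPM in control and 1.56, 1.01 and 1.61 CPM in mutant-labelled glands (log2 -5.36 ± 0.48, adjusted p = 0.000489), and its neighbour DptA at 54.5, 80.3 and 225 CPM in control and 2.09, 1.06 and 13.6 CPM in mutant-labelled glands (log2 -4.44 ± 1.03, adjusted p = 0.0266, lost with control 3 or mutant-labelled 1 or 2 left out (adjusted p = 0.0626 to 0.0758) and log2 -3.63 without control 3 and -6.23 without mutant-labelled 3). In both, control 3 was the highest library, and the groups did not overlap. The Attacin gene AttC was at 8.71, 8.73 and 4.27 CPM in control and 0.655, 0.288 and 1.17 CPM in mutant-labelled glands (log2 -3.37 ± 0.52, adjusted p = 0.00539). The Cecropin gene CecA1 was at 5.96, 1.59 and 4.61 CPM in control and 0.319, 0.828 and 0.357 CPM in mutant-labelled glands (log2 -3.001 ± 0.57, adjusted p = 0.0122, lost with control 1 left out (adjusted p = 0.0506)). The amidase gene PGRP-SC1b, which degrades the peptidoglycan that triggers the pathway, went from 0.459, 0.924 and 0.700 to 0.0531, 0.0360 and 0.0510 CPM (log2 -3.82 ± 0.55, adjusted p = 0.00357). The Attacin genes AttA, AttB and AttD were not called, and of 14 Imd signalling genes 1 rose and 1 fell (7.14% each, against 7.26% and 5.91% of all genes). The rise was Fadd, lost with control 3 left out (adjusted p = 0.0517), and the fall PGRP-LF, lost with control 1 or 3 or mutant-labelled 1, 2 or 3 left out (adjusted p = 0.0813 to 0.159).

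**Figure D4:**
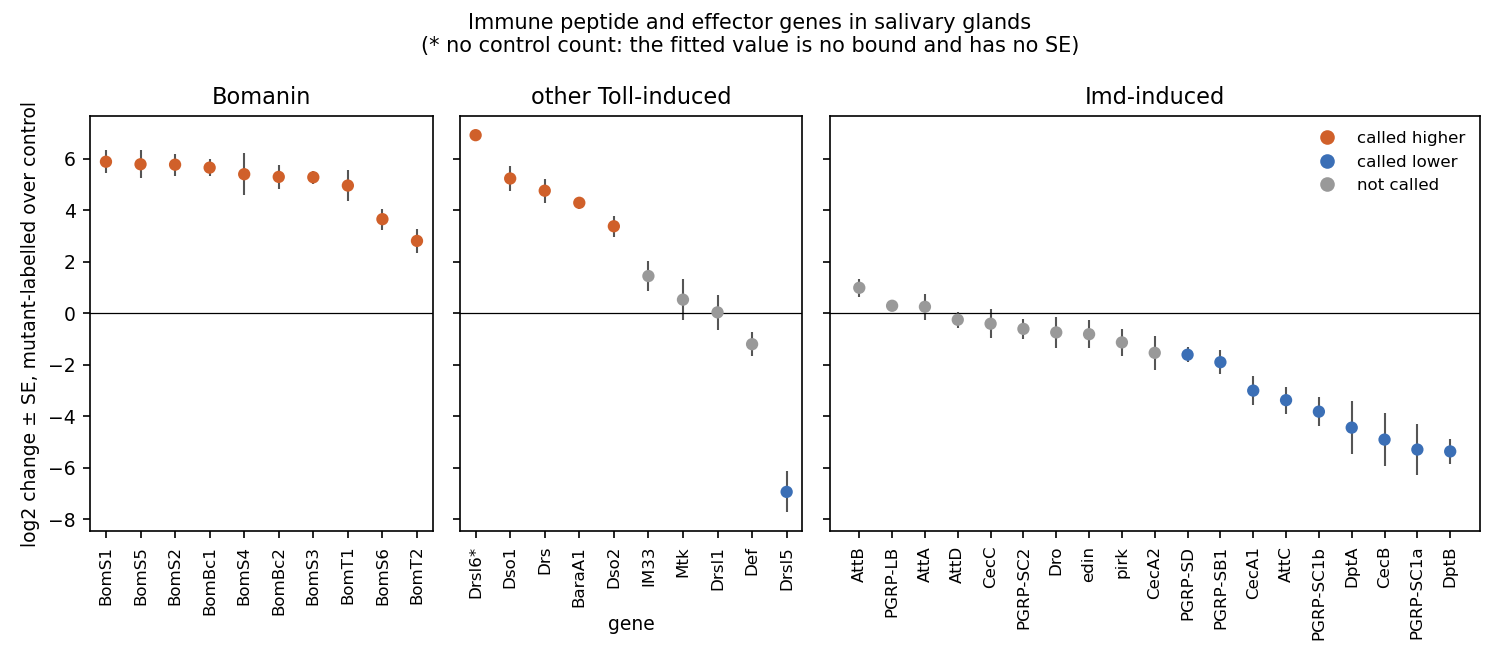
Log2 change ± SE of tested Bomanin, other Toll-induced and Imd-induced genes in mutant-labelled over control glands, with called genes coloured by direction and Drsl6, without a control count, drawn without SE. All 10 Bomanin genes are above 0, the Toll-induced peptides run from -6.94 (Drsl5) upward, and 9 Imd effectors are called below 0 and 0 above.

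Genes of other blood and stress responses also moved. Of 14 melanisation genes tested, 6 rose (42.9%, against 7.26% of all genes) and 0 fell, with a median of 0.51. But 3 rose on leaving out control 1 or 3 or mutant-labelled 1 or 3. Spn27A, a serpin that restrains melanisation, was at 12.8, 23.3 and 14.7 CPM in control and 60.0, 50.1 and 37.4 CPM in mutant-labelled glands (log2 1.54 ± 0.28, adjusted p = 0.0103), and the pigment gene e (ebony) was at 0.306, 0.924 and 0.378 CPM in control and 8.53, 5.202 and 6.05 CPM in mutant-labelled glands (log2 3.67 ± 0.43, adjusted p = 0.00162). The stress peptide gene TotC was at 0, 0.103 and 0.0756 CPM in control and 6.30, 4.70 and 4.24 CPM in mutant-labelled glands (log2 6.24 ± 0.51, adjusted p = 0.000322). Socs36E, an inhibitor and target of JAK/STAT signalling, fell from 20.2, 12.6 and 18.6 to 9.03, 6.21 and 8.01 CPM (log2 -1.15 ± 0.23, adjusted p = 0.0164), a call lost with control 1 or 3 or mutant-labelled 2 left out (adjusted p = 0.0614 to 0.0711). In the JAK/STAT and stress list of 12 tested, 2 rose and 2 fell (16.7% each, against 7.26% and 5.91% of all genes). The counts were 1 higher without control 1 or control 3 and 0 lower without control 1 or mutant-labelled 2.

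Some markers of the fat body and of blood cells, which make most immune peptides, were called higher in the same libraries. The 20 fat body genes listed summed to 15513, 13156 and 19818 CPM in control and 27859.8, 26373 and 34946 CPM in mutant-labelled glands, so that all mutant-labelled libraries were above all controls. Of 19 tested, 9 rose (47.4%, against 7.26% of all genes) and 0 fell, with a median of 0.91, and only Ugt35B1 had no count. GNBP3 is also on this list. Mtp, which loads lipid onto lipoproteins, was at 14.5, 13.7 and 17.2 CPM in control and 47.0, 43.4 and 52.0 CPM in mutant-labelled glands (log2 1.65 ± 0.17, adjusted p = 0.000932), fat-spondin at 7.90, 5.96 and 12.1 CPM in control and 30.7, 24.01 and 32.6 CPM in mutant-labelled glands (log2 1.74 ± 0.28, adjusted p = 0.00618) and the lipid droplet gene Lsd-1 at 77.3, 57.2 and 77.4 CPM in control and 134, 131 and 177 CPM in mutant-labelled glands (log2 1.06 ± 0.22, adjusted p = 0.0163). Fat body genes Fbp2 and Desat1 were not called, with log2 changes of 0.10 and 0.17. Of 18 blood cell genes tested, 4 rose (22.2%, against 7.26% of all genes) and 0 fell, with a median of 0.56. The blood cell list summed to 271, 233 and 318 CPM in control and 425, 353 and 535 CPM in mutant-labelled glands. The defining markers Hml and NimC1 were at 0.416 to 2.72 CPM in controls and 0.144 to 1.94 CPM in mutant-labelled glands and were not called. The part of these cells in the immune changes was not tested. fat-spondin, DptA, CecA1, BomT2, BomS4, BomT1 and Drsl6 were chosen after their values were seen.

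Among detoxification genes, those for cytochromes P450, glutathione transferases and alpha-esterases rose more often than they fell. Glycosyltransferase genes of the UGT family did not. Of 61 cytochrome P450 genes, oxidases of foreign compounds and hormones, 18 rose (29.5%) and 5 fell (8.20%), with a median of 0.45, against 7.26% and 5.91% of all genes. Of these calls, 5 rises and 0 falls were robust. Without control 3, 9 rose, and the number that fell was 1 (without mutant-labelled 1 or mutant-labelled 2) to 8 (without control 2). Cyp12c1 was at 7.70, 5.55 and 8.07 CPM in control and 70.0, 31.2 and 65.4 CPM in mutant-labelled glands (log2 2.96 ± 0.34, adjusted p = 0.00134), the most abundant of those with robust rises. Cyp12a4 was at 0.764, 0.514 and 0.378 CPM in control and 3.26, 3.74 and 2.63 CPM in mutant-labelled glands (log2 2.59 ± 0.35, adjusted p = 0.00288) and Cyp12d1-p at 0.0510, 0.205 and 0.132 CPM in control and 1.24, 1.96 and 1.63 CPM in mutant-labelled glands (log2 3.60 ± 0.48, adjusted p = 0.00273). Cyp6a17 was at 0.102, 0.565 and 0.0945 CPM in control and 6.44, 6.25 and 5.18 CPM in mutant-labelled glands (log2 4.74 ± 0.59, adjusted p = 0.00204, log2 5.91 without control 2 and 4.15 without control 3), with control 2 the highest control.

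Of 27 glutathione transferase genes tested, 7 rose (25.9%, against 7.26% of all genes) and 0 fell. Without control 1 or control 3, 3 rose, and without mutant-labelled 2, 4 rose. GstE1 was at 37.8, 37.999 and 31.2 CPM in control and 182, 106 and 119 CPM in mutant-labelled glands (log2 1.93 ± 0.25, adjusted p = 0.0024), GstE3 at 5.40, 14.7 and 8.21 CPM in control and 33.3, 41.5 and 68.5 CPM in mutant-labelled glands (log2 2.34 ± 0.41, adjusted p = 0.00887) and GstE10 at 13.8, 12.3 and 10.5 CPM in control and 58.8, 36.6 and 49.3 CPM in mutant-labelled glands (log2 1.98 ± 0.22, adjusted p = 0.0013). Of 16 glycosyltransferase genes of the UGT family, 2 rose (12.5%, against 7.26% of all genes) and 4 fell (25%, against 5.91%). Only 3 of these calls were robust: Ugt37D1 rose from 0.102, 0.0514 and 0.0378 to 0.726, 0.486 and 1.23 CPM, and Ugt50B3 and Ugt301D1 fell (log2 3.76 ± 0.66, -2.82 ± 0.48 and -1.52 ± 0.29). Among the others, Ugt37A3 was lost with control 1 or 3 or mutant-labelled 2 left out (adjusted p = 0.0662 to 0.075), and Ugt37C1 lost with control 1 or 3 or mutant-labelled 1 or 2 left out (adjusted p = 0.108 to 0.138). Of 9 alpha-esterase genes, 6 rose (66.7%, against 7.26% of all genes) and 0 fell, with a median of 1.49. alpha-Est1 was by far the most abundant, at 12.9, 17.6 and 12.99 CPM in control and 447, 483 and 977 CPM in mutant-labelled glands, 43.9-fold (log2 5.46 ± 0.39, adjusted p = 0.00017). alpha-Est8 was at 2.60, 1.13 and 1.97 CPM in control and 8.23, 7.96 and 7.61 CPM in mutant-labelled glands (log2 2.06 ± 0.30, adjusted p = 0.004) and alpha-Est2 at 2.24, 7.50 and 2.89 CPM in control and 23.9, 28.4 and 32.8 CPM in mutant-labelled glands (log2 2.77 ± 0.43, adjusted p = 0.0055, log2 3.45 without control 2). alpha-Est3 was at 30.2, 13.97 and 24.2 CPM in control and 70.3, 55.3 and 99.0 CPM in mutant-labelled glands (log2 1.71 ± 0.33, adjusted p = 0.0124), but 94.6% of its exon length overlaps another gene.

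Of 21 genes of the oxidative stress response, 5 rose (23.8%, against 7.26% of all genes), all robust, and 1 fell (4.76%, against 5.91%). That gene, Gclm of glutathione synthesis, was lost with control 1 or 3 or mutant-labelled 1, 2 or 3 left out (adjusted p = 0.0649 to 0.162). The peroxiredoxin genes Prx6c and Prx6b, which remove peroxides, are neighbours on 2R and rose from 0.561, 0.308 and 0.643 to 5.86, 5.78 and 12.7 CPM (log2 3.94 ± 0.44, adjusted p = 0.00126) and from 0.866, 0.770 and 0.775 to 3.19, 2.52 and 6.38 CPM (log2 2.32 ± 0.40, adjusted p = 0.00849). The glutathione peroxidase gene Gtpx was more abundant, at 85.6, 96.1 and 78.3 CPM in control and 189, 171 and 226 CPM in mutant-labelled glands (log2 1.17 ± 0.20, adjusted p = 0.00721). MsrA, which repairs oxidised methionine, was at 17.8, 14.4 and 12.8 CPM in control and 33.6, 37.0 and 52.7 CPM in mutant-labelled glands (log2 1.45 ± 0.23, adjusted p = 0.00581). Of 20 heat shock genes, 0 rose and 1 fell (5%, against 5.91% of all genes). The fallen gene, l(2)efl, lost its call with control 1 or 3 or mutant-labelled 1, 2 or 3 left out (adjusted p = 0.0512 to 0.0987).

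The most abundant robust rises were of genes with various roles. CG7606 was at 4738, 5599 and 3796 CPM in control and 9881, 9464 and 9697 CPM in mutant-labelled glands (log2 1.04 ± 0.17, adjusted p = 0.00642) and CG43679 at 2119, 1751 and 1795 CPM in control and 5586, 3982 and 5591 CPM in mutant-labelled glands (log2 1.42 ± 0.19, adjusted p = 0.00269), and in both the lowest mutant-labelled library was above the highest control. Lsp1beta, a storage protein made by the fat body, was at 1654, 1955 and 2193 CPM in control and 5057, 4950.1 and 4128 CPM in mutant-labelled glands (log2 1.28 ± 0.17, adjusted p = 0.00286), and the odorant-binding protein gene Obp99b at 1339, 1256 and 1628 CPM in control and 2749, 2602 and 3576 CPM in mutant-labelled glands (log2 1.08 ± 0.19, adjusted p = 0.00929). Arc1, whose protein forms capsids related to those of retrotransposons, was at 976, 1248 and 1159 CPM in control and 2791, 2794 and 2493 CPM in mutant-labelled glands (log2 1.26 ± 0.17, adjusted p = 0.00269). CG14852 was at 36.9, 57.7 and 32.9 CPM in control and 2419.6, 1116 and 868 CPM in mutant-labelled glands (log2 5.11 ± 0.47, adjusted p = 0.000545), with mutant-labelled 1 the highest. Gs1, a glutamine synthetase gene, was at 208, 125 and 225 CPM in control and 702, 731 and 1254 CPM in mutant-labelled glands (log2 2.27 ± 0.32, adjusted p = 0.00382), and Lk6, a kinase that acts on the translation factor eIF4E, at 262, 240.3 and 319 CPM in control and 532, 660.4 and 719 CPM in mutant-labelled glands (log2 1.22 ± 0.21, adjusted p = 0.00758). Of 17 genes of glycolysis and sugar transport, 3 rose (17.6%, against 7.26% of all genes) and 0 fell. Among the rises was Mdh1, malate dehydrogenase, at 129, 169 and 141 CPM in control and 339, 277 and 323 CPM in mutant-labelled glands (log2 1.10 ± 0.20, adjusted p = 0.00979).

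The abundant robust falls were of genes with various roles too. NT5E-2, a secreted 5′-nucleotidase, was at 1342, 1386 and 1222 CPM in control and 246, 179.7 and 269.7 CPM in mutant-labelled glands, 5.68-fold lower (log2 -2.51 ± 0.21, adjusted p = 0.000364). NTPase, which splits nucleoside triphosphates and diphosphates, was at 526, 602.2 and 487 CPM in control and 204.8, 278 and 199 CPM in mutant-labelled glands (log2 -1.25 ± 0.21, adjusted p = 0.00735). Cmpk, which phosphorylates pyrimidine nucleoside monophosphates, was at 412.3, 461 and 414 CPM in control and 120.3, 104 and 98.5 CPM in mutant-labelled glands (log2 -1.99 ± 0.19, adjusted p = 0.000562). All mutant-labelled libraries were below all controls in these 3 genes. CG7900 was at 356, 364 and 293 CPM in control and 36.2, 26.2 and 25.6 CPM in mutant-labelled glands (log2 -3.53 ± 0.23, adjusted p = 0.000139) and CG42807 at 649.8, 381 and 559 CPM in control and 139.9, 98.8 and 67.2 CPM in mutant-labelled glands (log2 -2.38 ± 0.33, adjusted p = 0.00325).

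Most genes of the gland's own function were not called. The 13 glue genes summed to 326928, 298115 and 318820.0 CPM in control and 342254, 349970.0 and 389034 CPM in mutant-labelled glands, and these sums did not overlap between the groups. The abundant Sgs3 was at 59577, 59310.5 and 66481 CPM in control and 57163, 56169 and 59514 CPM in mutant-labelled glands (adjusted p = 0.578), and Sgs7 at 63409.9, 61269.9 and 72568 CPM in control and 70878, 80021 and 70605 CPM in mutant-labelled glands (adjusted p = 0.396). Sgs5 did not overlap between the groups, at 74020.4, 54542 and 69609.7 CPM in control and 86756, 87571 and 94622 CPM in mutant-labelled glands, but was not called (log2 0.44 ± 0.13, adjusted p = 0.0669). Of the list, 0 rose and 1 fell (7.69%, against 5.91% of all genes): ng2, of a cluster expressed in glands before the glue genes, was at 302, 513 and 302 CPM in control and 28.5, 47.8 and 7.68 CPM in mutant-labelled glands (log2 -3.73 ± 0.63, adjusted p = 0.00735, log2 -4.35 without mutant-labelled 2). Of 14 tested factors that specify or maintain the gland, 0 were called with edgeR, 3 had an unadjusted p under 0.05, and DESeq2 called 2 and limma-voom 0. The forkhead factor gene fkh was at 136, 157 and 159 CPM in control and 123, 128 and 114 CPM in mutant-labelled glands (adjusted p = 0.309), and sage, which acts with it, at 931, 962 and 847 CPM in control and 1228, 1277 and 1322 CPM in mutant-labelled glands (adjusted p = 0.0833). Glue genes and these factors are defining markers of the gland, and all 6 libraries held them at these levels.

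Of 22 genes that modify glue mucins or carry them through the secretory pathway, 0 rose and 2 fell (9.09%, against 5.91% of all genes), both robust. Pgant9, which starts the O-glycosylation of glue mucins, was at 1078, 937 and 1228 CPM in control and 489, 571 and 513 CPM in mutant-labelled glands (log2 -1.04 ± 0.18, adjusted p = 0.00831). Vamp7, a vesicle fusion protein, was at 333, 233 and 317 CPM in control and 97.0, 82.3 and 116 CPM in mutant-labelled glands (log2 -1.58 ± 0.23, adjusted p = 0.00396). The other pgant genes overlapped or were not called, for instance Pgant6, at 364, 573 and 374 CPM in control and 343, 376 and 229.6 CPM in mutant-labelled glands. Of 25 genes of the unfolded protein response, 0 rose and 3 fell (12%, against 5.91% of all genes): Atf6, described above, the chaperone gene Pdi (log2 -0.83 ± 0.17, adjusted p = 0.0154, lost with control 1 or mutant-labelled 2 left out (adjusted p = 0.0551 to 0.066)) and crc, the fly ATF4 (log2 -0.79 ± 0.18, adjusted p = 0.0246, lost with control 1 or mutant-labelled 1 or 2 left out (adjusted p = 0.0833 to 0.106)), whose exons are 73.5% overlapped.

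Few genes of the endocycle, in which gland cells replicate without division, were called. Of 26 tested, 0 rose and 2 fell (7.69%, against 5.91% of all genes), with a median of -0.22, against -0.04 for all genes. The log2 change was above 0 for 7 of the 26, as for 4391 of all 9441 genes. The list summed to 406, 465 and 397 CPM in control and 345, 390 and 314 CPM in mutant-labelled glands, without overlap. stg, the Cdc25 phosphatase that drives cells into mitosis, was at 14.6, 8.73 and 10.1 CPM in control and 2.58, 1.26 and 2.81 CPM in mutant-labelled glands (log2 -2.33 ± 0.35, adjusted p = 0.00455). fzr, which activates the anaphase-promoting complex so that mitosis is skipped, was at 14.98, 14.8 and 12.9 CPM in control and 8.58, 6.84 and 8.37 CPM in mutant-labelled glands (log2 -0.84 ± 0.17, adjusted p = 0.0158, lost with control 1 or mutant-labelled 2 left out (adjusted p = 0.0621 to 0.0798)). Of 20 apoptosis genes, 0 rose and 2 fell, the death inducer gene rpr from 57.6, 14.3 and 28.0 to 3.91, 1.67 and 8.32 CPM (lost with control 1 or 3 or mutant-labelled 1 or 2 left out (adjusted p = 0.0605 to 0.0874) and log2 -2.21 without control 1 and -3.56 without mutant-labelled 3) and the caspase gene Dronc from 48.4, 20.2 and 41.4 to 10.02, 7.36 and 16.1 CPM (lost with control 1 or 3 or mutant-labelled 1 or 2 left out (adjusted p = 0.073 to 0.0891)). The 2 falls are 10% of the apoptosis list, against 5.91% of all genes. Without control 2, 4 apoptosis genes fell.

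Genes of the ecdysone response, which times the end of larval life, varied between libraries of 1 group. Of 19 early genes, 1 rose (MsrA, above) and 1 fell: Eip63E was at 276, 47.9 and 246 CPM in control and 26.0, 19.1 and 32.5 CPM in mutant-labelled glands (log2 -2.88 ± 0.60, adjusted p = 0.0171, lost with control 1 or 3 or mutant-labelled 1 or 2 left out (adjusted p = 0.0557 to 0.0753)). The called early genes are 5.26% in each direction, against 7.26% higher and 5.91% lower of all genes. Without control 2, 6 early genes fell, and without mutant-labelled 3, 3 fell. Of 9 late genes of the 71E puff tested, which glands express after the glue genes, 0 were called with edgeR at a median log2 change of -2.80, 4 had an unadjusted p under 0.05, and DESeq2 and limma-voom called 0. They summed to 3864, 315 and 2236 CPM in control and 947, 94.8 and 318 CPM in mutant-labelled glands, and control 2 was below mutant-labelled 1 and level with mutant-labelled 3. Without control 2, 4 of them were called lower, and without mutant-labelled 1, 6. The stage L3 is the only age the labels give, and the part of developmental time in other changes was not tested.

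Receptor genes held some of the steepest changes in both directions. GluRIIC, a subunit of the glutamate receptor of the neuromuscular junction, was at 80.7, 44.3 and 86.6 CPM in control and 0.708, 0.450 and 0.306 CPM in mutant-labelled glands (log2 -7.14 ± 0.43, adjusted p = 7.99e-05), and Grik, a kainate-type receptor subunit, at 1.38, 2.46 and 1.08 CPM in control and 80.4, 118 and 82.9 CPM in mutant-labelled glands (log2 5.87 ± 0.37, adjusted p = 0.000102). All 3 mutant-labelled libraries were low in GluRIIC and high in Grik. Of the methuselah family of G protein-coupled receptors, 2 of 11 rose and 2 fell (18.2% each, against 7.26% and 5.91% of all genes). mth, known for its effect on lifespan, was at 105, 56.4 and 76.7 CPM in control and 2.21, 1.96 and 2.99 CPM in mutant-labelled glands (log2 -5.06 ± 0.32, adjusted p = 9.12e-05), and mthl8 at 16.003, 8.01 and 12.5 CPM in control and 0.142, 0.0720 and 0.102 CPM in mutant-labelled glands (log2 -6.81 ± 0.41, adjusted p = 7.99e-05). mthl3 rose, at 15.2, 13.4 and 11.1 CPM in control and 43.4, 44.7 and 44.0 CPM in mutant-labelled glands (log2 1.74 ± 0.18, adjusted p = 0.000816), and so did mthl15 from 0.102, 0.205 and 0 to 1.22, 1.35 and 1.45 CPM (log2 4.09 ± 0.83, lost with control 1 or mutant-labelled 2 left out (adjusted p = 0.0541 to 0.0593) and log2 5.37 without control 2 and 3.09 without control 3). phu was at 83.5, 45.7 and 78.6 CPM in control and 0.319, 0.450 and 0.587 CPM in mutant-labelled glands (log2 -7.27 ± 0.37, adjusted p = 7.99e-05). The neighbour of Eip63E on 3L, lncRNA:CR45043, was at 191, 29.8 and 125 CPM in control and 0.885, 0.522 and 0.944 CPM in mutant-labelled glands (log2 -7.20 ± 0.75, adjusted p = 0.000882), with control 2 the lowest control.

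Some genes for the machinery of silencing were called, in both directions. Of 29 genes of H3K9 methylation and heterochromatin tested, 5 rose (17.2%, against 7.26% of all genes) and 1 fell (3.45%, against 5.91%), with a median of -0.06. The rises include Su(var)3-9, against its label, and wde, a cofactor of SetDB1, at 10.4, 10.7 and 11.6 CPM in control and 32.5, 44.0 and 34.6 CPM in mutant-labelled glands (log2 1.76 ± 0.18, adjusted p = 0.000864). The fall is Parp1, itself a pericentromeric gene. The number of rises was 3 without control 1 or control 3 and 2 without mutant-labelled 2. Of 28 piRNA pathway genes, 2 rose (7.14%, against 7.26% of all genes) and 1 fell (3.57%, against 5.91%), so this list was not called more often than all genes. mael, needed for piRNA-guided silencing in the germline, was at 0.713, 1.08 and 0.492 CPM in control and 7.98, 9.50 and 7.50 CPM in mutant-labelled glands (log2 3.51 ± 0.32, adjusted p = 0.000532), and AGO3 is described above. armi was lost with control 1 or 2 or mutant-labelled 1, 2 or 3 left out (adjusted p = 0.0807 to 0.153), and 99.6% of its exon length overlaps another gene. lncRNA:flam, the precursor transcript of the flamenco piRNA cluster that silences gypsy-group elements in ovarian follicle cells, had no count in controls and 0.212, 0.216 and 0.306 CPM in mutant-labelled glands. Its call was lost on leaving out control 3 or any mutant-labelled library (adjusted p up to 0.0568). Another annotated feature, with a gypsy2 copy named as partner, overlaps 74.7% of its exon length. Of 19 Polycomb genes, 0 rose and 1 fell (5.26%, against 5.91% of all genes). The fallen gene, Psc, lost its call with control 1 or 3 or mutant-labelled 1, 2 or 3 left out (adjusted p = 0.0652 to 0.15), and 2 Polycomb genes fell without control 2.

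Markers of other tissues differed in level and moved in both directions. Of 17 tracheal genes, 0 rose and 3 fell (17.6%, against 5.91% of all genes), with sums of 291, 302 and 319.5 CPM in control and 205.2, 231 and 232 CPM in mutant-labelled glands. emp, a scavenger receptor, was at 81.8, 75.4 and 104 CPM in control and 22.9, 22.1 and 26.1 CPM in mutant-labelled glands (log2 -1.88 ± 0.19, adjusted p = 0.000832), and dysf, a factor of tracheal fusion cells, at 1.83, 1.03 and 2.38 CPM in control and 0.142, 0.108 and 0.153 CPM in mutant-labelled glands (log2 -3.70 ± 0.46, adjusted p = 0.00196), while the defining trh and btl were not called. Of 15 genes of imaginal cells, 0 rose and 2 fell (13.3%, against 5.91% of all genes), with sums of 139, 145 and 171 CPM in control and 89.2, 90.7 and 111 CPM in mutant-labelled glands. Of these calls, 0 were kept on leaving out control 1 or 3 or mutant-labelled 1 or 2, and 1 without mutant-labelled 3. Of 17 muscle genes, 2 rose and 2 fell (11.8% each, against 7.26% and 5.91% of all genes), with a median log2 change of -0.23. The muscle list summed to 1020, 860 and 1077 CPM in control and 594, 753 and 831 CPM in mutant-labelled glands, so the sum fell without overlap. TpnC73F, a troponin C, was at 20.7, 26.2 and 11.7 CPM in control and 84.7, 104 and 182 CPM in mutant-labelled glands (log2 2.67 ± 0.39, adjusted p = 0.00423), and Obsc, a giant protein of the sarcomere, at 1.63, 1.80 and 2.27 CPM in control and 12.7, 17.3 and 11.9 CPM in mutant-labelled glands (log2 2.85 ± 0.24, adjusted p = 0.00036). The muscle LIM protein gene Mlp60A was at 8.66, 3.29 and 5.88 CPM in control and 0.425, 0.486 and 0.434 CPM in mutant-labelled glands (log2 -3.72 ± 0.40, adjusted p = 0.000968), and the call of Tm1, a tropomyosin, was lost with control 1 or 3 or mutant-labelled 1 or 2 left out (adjusted p = 0.0786 to 0.109). Midgut genes summed to 9.76 to 26.9 CPM, and 5 of the 25 listed had no count in any gland library.

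**Figure D5:**
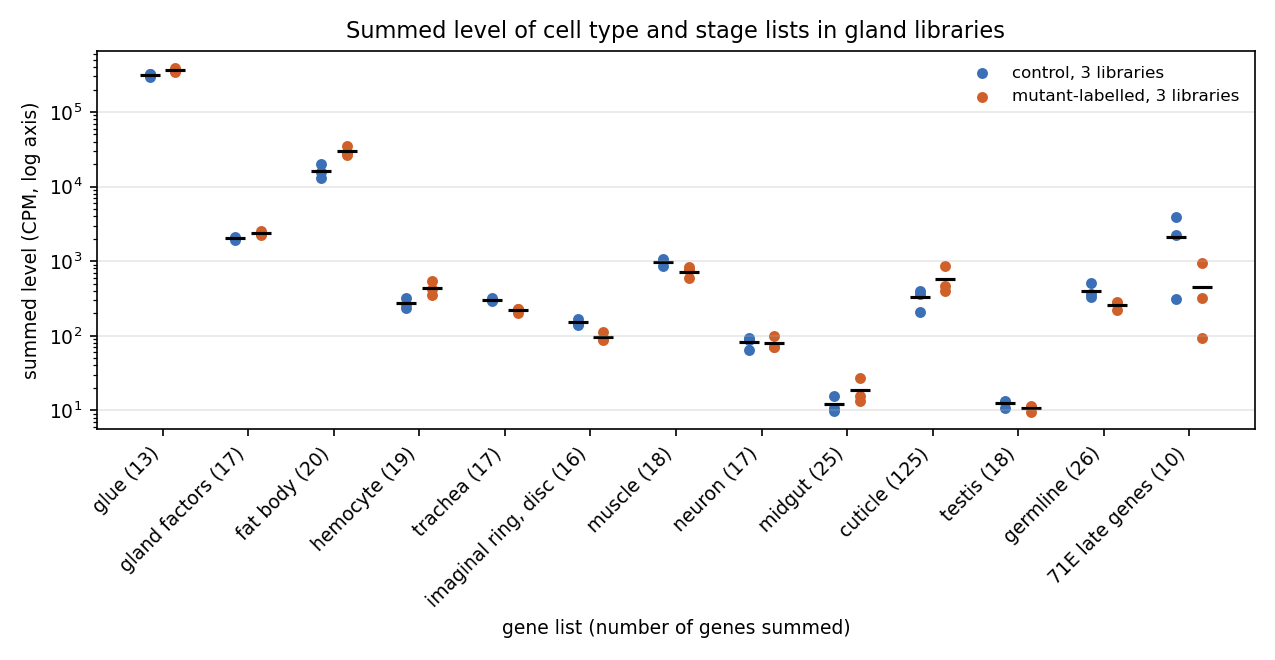
Summed CPM (log axis) of the marker lists of other tissues and of stage and gland lists in each of the 3 control and 3 mutant-labelled gland libraries, with group means as bars. The fat body sum is 13156 to 19818 CPM in control and 26373 to 34946 CPM in mutant-labelled glands, while the late 71E puff genes spread widely within both groups.

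Some genes were detected in mutant-labelled glands only. Of the genes tested and called, 17 had no count in any control library and rose. Such genes pass the count filter only through the mutant-labelled libraries and can only be called higher. Control 1 and control 2 also had the fewest gene counts, 19775440 and 17418224. Genes without a count in mutant-labelled glands are not described here, so the number 17 does not show a direction. resilin, an elastic protein of cuticle, had 1.504, 1.87 and 3.98 CPM in mutant-labelled glands, at least 75.2-fold more than a floor of 3 counts over the control group. lncRNA:CR44419 had 0.832, 1.39 and 2.04 CPM, at least 43.5-fold. Cyp4p2 had 0.832, 0.738 and 0.817 CPM, at least 24.4-fold, and the serine protease gene Sems 0.442, 0.702 and 0.613 CPM, at least 17.96-fold. The values of the 3 mutant-labelled libraries lie close together for Cyp4p2 and Sems, and mutant-labelled 3 is the highest for resilin. lncRNA:CR44419 was chosen after its values were seen.

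The large housekeeping lists hardly moved, while 7.26% of all genes rose and 5.91% fell. Of 84 cytosolic ribosomal protein genes, 2 rose and 1 fell (RpL34a by 1.06 ± 0.19, RpL18 lost with control 1, 2 or 3 or mutant-labelled 1 or 3 left out (adjusted p = 0.0543 to 0.157) and RpL38 lost with control 1 or mutant-labelled 1, 2 or 3 left out (adjusted p = 0.0632 to 0.0959)), with a median of 0.11. Of 71 mitochondrial ribosomal protein genes, 1 rose and 1 fell, and both calls were lost on leaving out control 1 or 3 or any mutant-labelled library. Of 15 transcripts of the mitochondrial genome, 0 rose and 1 fell, mt:ND3, lost with mutant-labelled 1, 2 or 3 left out (adjusted p = 0.0587 to 0.0655). Of 19 autophagy and 18 insulin and growth genes, 1 each rose, and both calls were lost on leaving out any control or mutant-labelled 2 or 3. Of 21 lipid metabolism genes, 4 rose and 1 fell, among them CG3635 and the lipase gene Lip4, at 5.86, 2.93 and 5.22 CPM in control and 14.2, 14.4 and 19.8 CPM in mutant-labelled glands (log2 1.78 ± 0.28, adjusted p = 0.00581).

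Changes in glands were compared with those in wing discs of the same genotype labels. Over all 10185 genes in a fit of the 12 libraries, the change differed between tissues for 10.1%, 572 with the gland change higher (5.62%) and 455 lower (4.47%). Of the 1243 gland calls made with the 6 gland libraries alone, 1212 were also tested in the fit of 12. In discs, the fit of 12 called 1032 of the 10185 genes. Of the 1212 gland calls, 269 were among these disc calls (22.2% of the 1212 and 26.1% of the disc calls). The direction was the same for 233 and opposite for 36. This overlap mixes 2 fits, since for glands the fit of 12 itself called 2360 genes. Tissue and mRNA enrichment differ together, with 2 rounds for glands and 1 for discs.

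For CG10140 the gland level was 0.713, 0.616 and 0.567 CPM in control and 18.5, 18.7 and 37.6 CPM in mutant-labelled glands, while the disc means were 0.214 and 0.0671 CPM, and the difference between the changes was log2 7.02 ± 0.70, adjusted p = 5.22e-05. For Jig the disc means were 1.64 and 1.33 CPM (difference log2 -7.01 ± 0.53, adjusted p = 6.18e-06), for phu 0.338 and 0.134 CPM (log2 -5.82 ± 0.75, adjusted p = 0.000321), and for lncRNA:CR45043 0.308 and 0.427 CPM (log2 -7.52 ± 0.97, adjusted p = 0.000312). The pericentromeric nAChRalpha4 had disc means of 0.344 and 0.839 CPM (log2 -5.88 ± 0.74, adjusted p = 0.000254). Su(var)3-9 was 1 of the 36 genes with opposite calls, with disc means of 15.2 and 2.44 CPM (log2 7.77 ± 0.32, adjusted p = 4.15e-08). Element changes were not compared between the tissues.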

How the data were processed

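RNA of 6 salivary gland libraries, 3 OregonR and 3 mutant-labelled, was analysed, and 6 wing disc libraries entered only the comparison between tissues. Gene files deposited by the authors hold raw counts per FlyBase gene ID. Per the submitters' processing notes, the tools were cutadapt, HISAT2 and featureCounts (builds BDGP6 and dm6), and the sources used here give no versions or options. The deposited element files hold estimated counts per consensus sequence, rounded here, and the tool, SalmonTE, is known from their names only. In 2 gland libraries, cells of 2 of 186 elements hold month names, and these elements were left out. Gene positions and names come from Ensembl annotation release 115, in which 17710 of 17807 IDs had a model. Positions are BDGP6.

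Genes were filtered by filterByExpr, scaled by TMM and compared with edgeR's quasi-likelihood test (edgeR 4.0.16, R 4.3.3) at a threshold of 0.05 after Benjamini-Hochberg adjustment over every tested gene. Elements were fitted alike, on library sizes taken from the genes. Every adjusted p for a gene or element is from these fits. The change in glands minus that in discs is the interaction term of a fit of all 12 libraries, which share 1 spread. SE is the log2 change, fitted with no prior count, over the square root of F, and CPM are counts per 1000000 effective counts. A value of a list is a count of its members called and a median, with no test of the list. The scripts were tested on simulated counts.

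The members and the 50 lists were chosen with earlier results of these data known, and some lists share genes. The rule for named genes took the targeted genes and the 5 tested genes on each side of Su(var)3-9. Among robust genes reaching a mean of 10 CPM it took the 12 largest rises and 12 largest falls and the 8 most abundant of each. From each list it took up to 4 robust members and up to 2 other called ones, and 5 genes in each direction for the difference between tissues. It gave 178 genes, not all of which are described, and 34 were added after their values were seen, as were list members named as not called and genes named within runs. Alternatives tried were DESeq2 1.42.0, limma-voom (limma 3.58.1), RLE factors, upper-quartile factors, no filter, a replicate block, 20 abundant genes removed, thinning to the smallest library, all 12 libraries fitted together, element totals as library sizes, and each gland library left out.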

Additional observations from a re-analysis of the deposited data

Results flagged for a closer look

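The gland change differed from the disc change for 10 genes named by rule, by the interaction term of the edgeR quasi-likelihood fit of all 12 libraries. Differences are the gland log2 change minus the disc log2 change. Higher in glands were Cyp4p2 (12.22), resilin (11.56), Su(var)3-9 (7.77), the serine protease gene Sems (7.74) and CG10140 (7.02). The values of Cyp4p2, resilin and Sems are fitted ones for genes without a count in control glands, depend on the prior count and are no measure of size. Lower in glands were lncRNA:CR45043 (-7.52), Jig (-7.01), nAChRalpha4 (-5.88), phu (-5.82) and CG15117 (-5.78). CG15117 was at 2.24, 3.90 and 3.35 CPM in control and 0.212, 0.0720 and 0.204 CPM in mutant-labelled glands, with disc means of 0.0533 and 0.165 CPM. The adjusted p of the difference was 0.0203 for Cyp4p2, 0.00153 for resilin, 0.0254 for Sems and 0.000923 for CG15117.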

How the results depend on the processing

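Of the 3605 values of named genes and elements under alternatives, 3312 kept their call and direction, 270 lost the call, 5 gained it (Sgs5 with upper-quartile factors and with 12 libraries, sage with DESeq2, roX1 with the block and DM412_I with element totals) and 18 changed sign. With element totals as library sizes the sign changed for COPIA_DM_I (-0.14), COPIA_DM_LTR (-0.067), FW (-0.37), ROO_I (-0.68) and TAHRE (-0.34). With 1 library left out, values ran from -0.088 (without control 2) to 0.41 for ROO_I, from -0.25 to 0.53 (without control 3) for DM412_I, from -0.32 to 0.088 (without control 2) for egg, from -0.49 to 0.082 (without control 2) for mRpS10, from -0.28 to 0.090 (without control 2) for Set and from -0.24 (without mutant-labelled 2) to 0.18 for CG42404. The sign also turned for DM412_I without mutant-labelled 1 (0.14), Set without mutant-labelled 3 (0.071) and CG42404 without control 1 (-0.090). DM412_I was at 0.0056 with limma-voom and 0.089 with the replicate block, and CG42404 at -0.048 and -0.024. None of these was called, apart from both copia entries and, with element totals, DM412_I. The causes were not tested.

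Genes called were 1032 to 1727 under all settings with 6 libraries, against 1243, 2360 when all 12 libraries were fitted together (1404 higher and 956 lower), and 705 to 1512 with 1 library left out. Elements called were 105 to 125, against 119. The difference between tissues was past the threshold for 838 to 1366 genes, against 1027. Of 750 counts of list members under alternatives, 571 stayed within 1.5 times. The median of all genes was -0.05 to -0.01 under other scalings.

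Whether replicate numbers pair the libraries could not be settled from so few pairs. Deviations of same-numbered libraries correlated at -0.004, 0.474 and 0.471. Control 2 and control 3 correlated best with the mutant-labelled library of the same number, but control 1 with mutant-labelled 3 (0.257). With a replicate block, 1570 genes (831 higher, 739 lower) and 121 elements were called, 1162 genes differed between tissues, and the element sum kept its log2 difference of 0.92 at p = 0.25 by an exact sign-flip test.

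The 3 libraries of a group may be technical replicates, and 25 pooled glands hide variation between animals. A gene under 0.0531 to 0.154 CPM was below 3 counts. Strain, genotype and element copy number cannot be told apart. Su(var)3-9 mRNA was higher in the glands labelled as its mutant, so directions are those of the libraries as labelled, and an exchange of gland samples was not tested.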
